A study of Mus musculus with 33 samples.

Results

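The genes described here encode the proteins of the cytosolic ribosome, measured by RNA-seq in the frontal cortex of mice. A gene was taken as a member where its symbol follows the naming of these proteins (Rpl or Rps with a number, Rplp0 to Rplp2, and Rpsa), with the S6 kinases and the named pseudogenes left out, and where it had at least 1 CPM (counts scaled to a common library total) in each of the 33 libraries. Of the 21565 genes in the table, 83 carried such a symbol and 78 met the level, 46 of them genes of the large subunit and 32 genes of the small subunit. The other 5 were near or at 0: Rpl13 and Rpl10l were listed at 0 in every library, Rpl24 had at most 9 reads, Rpl39l at most 10, and Rpl3l between 1 and 28. Rpl13 and Rpl24 are used by every cell, so their values at or near 0 are not read as levels of expression. The members closest to the limit were Rpl29, at 2.26 CPM in its lowest library, Rpl36 at 3.03 and Rps16 at 4.36.

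All mice were adult males on the C57BL/6J background, taken at the same hour of the day. Wild-type (WT) mice had control sleep (CS, left to sleep freely, 6 libraries), sleep deprivation on a slowly moving treadmill for 6 hr (SD, 7 libraries), or a shorter deprivation and then 2 hr in which to sleep again (recovery sleep, RS, 7 libraries). Mef2c f/f mice carry loxP sites around an exon of Mef2c, a transcription factor gene active in neurons, and are the controls of Mef2c-cKO Camk2a-Cre mice (Mef2c-cKO below), which carry the same sites and a Camk2a-Cre transgene that removes the exon in excitatory neurons of the forebrain after birth. There were 4 CS and 3 SD libraries of Mef2c f/f and 3 CS and 3 SD libraries of Mef2c-cKO. Both lines carry the loxP sites, and deleted and intact cells are mixed in a Mef2c-cKO library. The study found the recombined allele in tail tissue of some offspring of Cre-carrying males. It states that 2 of the 3 Mef2c-cKO CS samples had such germline recombination, so deletion in these was not confined to the neurons. For the SD samples this is not stated.

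The libraries held between 18935045 and 249046089 reads. Values were divided by a scaling factor per library and are called rescaled CPM below. Mef2c itself lay between 1079 and 1205 rescaled CPM in Mef2c f/f CS and between 955 and 1724 in Mef2c-cKO CS, but a value summed over the whole gene does not check the loss of an exon. Markers of excitatory neurons were present in every library, with sums of 1405 to 2645 rescaled CPM. The WT libraries and those of the Mef2c lines share no library. Gnb2l1, the gene of the ribosomal scaffold RACK1, was listed at 0 in all 13 libraries of the Mef2c lines and at 49.4 to 169 rescaled CPM in the 20 WT libraries. Levels were compared within WT or within the Mef2c lines. Replicates are separate libraries, and p-values measure the spread between them.

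The ribosome consists of a small subunit, which reads the mRNA, and a large subunit, which joins the amino acids, each built from ribosomal RNA and proteins made by separate nuclear genes. The mRNAs of these proteins usually begin with an uninterrupted run of pyrimidines, the 5' terminal oligopyrimidine (TOP) motif, through which the mTORC1 kinase and the RNA-binding protein LARP1 set how well they are translated. In neurons ribosomes also work in dendrites and axons, and protein synthesis has long been studied as a process that sleep and wakefulness affect. In whole tissue, fewer cells of a type and less RNA per cell cannot be told apart.

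The members were spread over 19 chromosomes, with 14 on chromosome 7 and 4, Rps4x, Rpl10, Rpl36a and Rpl39, on chromosome X. They had between 3 and 10 exons, and in 29 of the 78 a small nucleolar RNA lay inside the gene. Their transcripts were short, with a median length of 834 nt (345 to 5179) against 3249 nt for the other expressed genes, of which 2.23% were shorter than the median member. Their GC content was close to that of other genes, with medians of 50.8% and 50.1%. Averaged over all libraries, levels ran from 9.50 rescaled CPM for Rps27l to 312 for Rpl4. Per kb of transcript, Rps29 (647 rescaled CPM per kb), Rplp1 (559) and Rps21 (452) stood highest, and Rpl7l1 and Rpl13a (both 11.7) and Rps27l (19.0) lowest. Counting used uniquely mapped reads, and 72 of the 78 members shared at least 1 stretch of 100 bases with a transcript of another gene. For 26 members more than 50% of such stretches were shared, up to 98.4% for Rps27, so their levels are uncertain. The share was 83.6% for Rps6, 81.4% for Rps12 and 53.8% for Rps27a, but 0 for Rps21, 17.2% for Rplp2 and 24.7% for Rps29.

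Where a member has a like copy, the copy named after it was the lower of the pair per kb in most cases. Rps27l, a protein related to Rps27, stood at 19.0 rescaled CPM per kb against 373 for Rps27, and Rpl7l1 at 11.7 against 123 for Rpl7. Rpl22l1 was the exception, at 74.3 against 32.8 for Rpl22. Rpl3, Rpl10 and Rpl39 stood at 202, 167 and 128 rescaled CPM per kb, and their copies Rpl3l, Rpl10l and Rpl39l were those at or near 0 reads named above. Rps4x stood at 135 and Rpl36a at 145, while Rpl36al, which the symbol rule leaves out, lay between 1.33 and 48.4 CPM. Rps4l was not analysed here.

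The 5' ends are shown for members that answer the WT comparison differently, because the pyrimidine run is the feature these mRNAs are known for. RefSeq promoter entries (GRCm38.p6, 250 bases before to 50 after the annotated start) matched 58 of the 78 members. A run of at least 8 pyrimidines (C or T on the gene's strand) that begins with C, within 30 bases before to 40 after the start, was found in 42 of the 58 (72.4%), and in 6627 of the 27025 genes with a RefSeq promoter entry (24.5%). A run of at least 12 was found in 20 members (34.5%) and in 6.09% of those genes. In the stretches of 30 bases below the run is in capitals. A run is a description of the letters and not evidence of where transcription starts.
Rplp2 (chr7:141447639-141447668, plus strand): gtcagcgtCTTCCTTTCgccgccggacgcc
Rpl37a (chr1:72711276-72711305, plus strand): cattgcgtCCCTTCCTCTTCggacttgggc
Rpl11 (chr4:136053358-136053387, minus strand): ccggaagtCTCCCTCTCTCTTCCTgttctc
Rps12 (chr10:23787180-23787209, minus strand): accgccggCCTTTTCCCCTgccgccgccga
Rpl5 (chr5:107900500-107900529, plus strand): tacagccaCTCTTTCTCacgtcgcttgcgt
Rps6 (chr4:86857347-86857376, minus strand): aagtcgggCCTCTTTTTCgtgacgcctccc
Rps24 (chr14:24490668-24490697, plus strand): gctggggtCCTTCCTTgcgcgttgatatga
Rpl4 (chr9:64173362-64173391, plus strand): tgacaagtCTTTCCTTTTCCTgtgggagca

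The summed level of the members differed more between WT libraries than between groups of the Mef2c lines. In WT CS the sum ran from 5990 to 8263 rescaled CPM, in SD from 6963 to 14318 and in RS from 7374 to 14217. The SD libraries spread widely: replicate 2 was the highest, while replicates 3 and 6, at 6963 and 7448, lay within the CS range. In RS, replicates 5 and 6 stood apart at 14217 and 12531, and replicates 1 and 2 lay within the CS range at 7561 and 7374. In the Mef2c lines the sum ran from 9175 to 11380 in Mef2c f/f CS, 9592 to 10258 in Mef2c f/f SD, 11600 to 11972 in Mef2c-cKO CS and 10745 to 11686 in Mef2c-cKO SD, so that each Mef2c-cKO library lay above each Mef2c f/f library of the same sleep state. As a share of the listed CPM the members took 0.458% to 0.758% in WT CS, 0.718% to 1.57% in SD and 0.671% to 1.51% in RS.

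**Figure D1:**
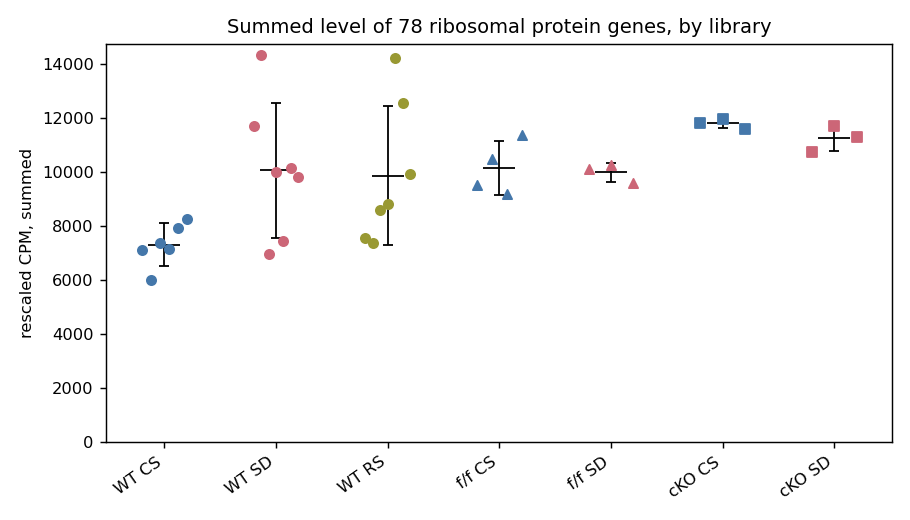
Summed level of the 78 ribosomal protein genes (y axis, rescaled CPM) in each of the 33 libraries, by group (x axis), with bars for the mean ± SD. The 7 WT SD libraries spread from 6963 to 14318, across and above the 6 CS libraries, and the 3 Mef2c-cKO CS libraries lie between 11600 and 11972.

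The members moved together from library to library. With group means removed, a member's log2 level in the 20 WT libraries had a median correlation of 0.858 with the mean of the other members, and 69 of 78 were above 0.5. The points share library, depth and scaling, so this is a description. The 2 members with a negative value were Rpl4 (-0.43) and Rpl21 (-0.27), both among the 4 most abundant members, and Rps24, Rpl19 and Rps6 were near 0. In the 13 libraries of the Mef2c lines the median was 0.624, and 12 members were below 0.

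SD compared to CS in WT mice asks what sleep loss does to these mRNAs. After SD, 48 of the 78 members (61.5%) were DEGs with increased expression (limma across all genes tested, adjusted p up to 0.05, log2 fold change 0.3 or more in size), and none had decreased expression. Among all 12913 genes tested, 24.6% were called higher and 20.5% lower. The median member changed by 0.55 on the log2 scale, against 0.038 for all genes, and 72 members had a positive value. Rplp2, Rpl36, Rps29, Rplp1 and Rpl37a had the largest values, while Rpl4, Rpl17 and Rpl21 had negative values that did not pass.

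The P stalk (Rplp0, Rplp1 and Rplp2), the arm of the large subunit that binds the translation factors, had all 3 of its genes higher, with a median of 1.77. Rplp2 lay at 6.39, 26.6 and 53.1 rescaled CPM (lowest, median and highest library) in CS and at 35.9, 89.9 and 220.1 in SD (log2 fold change 1.98, SE 0.468, adjusted p = 0.00538). Rplp1 lay at 15.5, 87.8 and 224 in CS and 116, 278 and 478 in SD (log2 fold change 1.77, SE 0.52, adjusted p = 0.014). Rplp0, the scaffold of the stalk, lay at 36.0, 66.9 and 92.3 against 70.4, 129 and 171 (log2 fold change 0.84, SE 0.228, adjusted p = 0.00992). In each of the 3 genes the median SD library lay above the highest CS library, and the lowest SD libraries overlapped the upper CS libraries. CS replicates 1 and 2 were the lowest of their group in all 3.

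Other small proteins showed the same order. Rpl36, a protein of the large subunit, lay at 4.23, 25.3 and 49.9999 rescaled CPM in CS and 32.4, 79.4 and 149 in SD (log2 fold change 1.94, SE 0.504, adjusted p = 0.00817). Rps29, a zinc-binding protein of the small subunit, lay at 12.1, 66.7 and 131 against 83.7, 211 and 461 (log2 fold change 1.85, SE 0.509, adjusted p = 0.0107). Both groups overlapped in each gene, with SD replicate 3 the lowest SD library. Rpl37a, a zinc-binding protein of the large subunit, lay at 17.5, 76.8 and 84.6 against 98.3, 133 and 258 (log2 fold change 1.40, SE 0.353, adjusted p = 0.00725). Rps16, which sits near the decoding site of the small subunit, lay at 6.07, 13.2 and 17.7 against 20.2, 32.8 and 40.7 (log2 fold change 1.21, SE 0.233, adjusted p = 0.00192). Rpl37a and Rps16 were the 2 members whose groups did not overlap, against 4.68% of all genes with every SD library above every CS library.

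**Figure D2:**
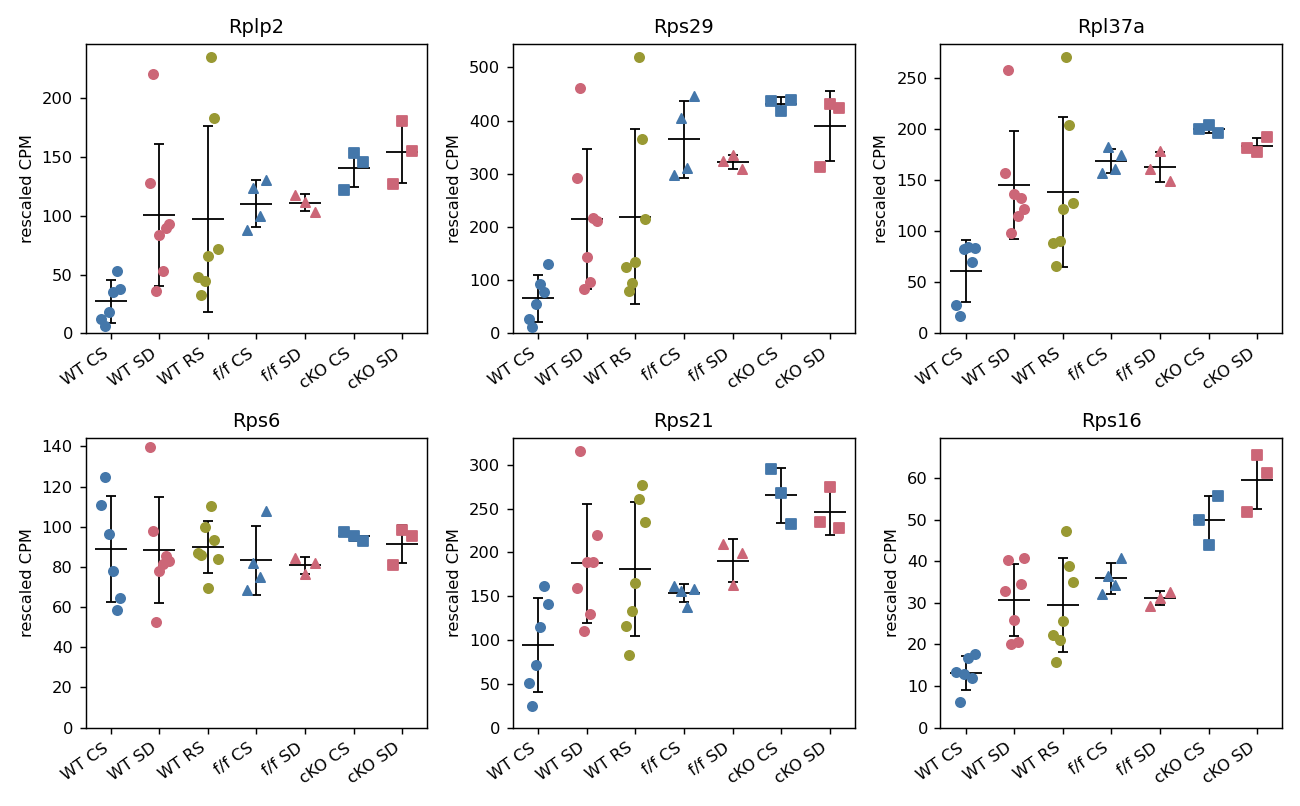
Level of 6 ribosomal protein genes (y axes, rescaled CPM, each starting at 0) in each library by group (x axes), with bars for the mean ± SD. Rplp2, Rps29 and Rpl37a are higher in most WT SD and RS libraries than in CS, Rps6 is not, and Rps21 and Rps16 are higher in the Mef2c-cKO libraries than in Mef2c f/f.

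The 5S particle, Rpl5 and Rpl11 with the 5S ribosomal RNA, binds Mdm2 when ribosome assembly is disturbed. Rpl11 lay at 51.3, 62.3 and 70.0 in CS and 59.1, 84.6 and 101 in SD and rose (log2 fold change 0.38, SE 0.117, adjusted p = 0.017), but its value was -0.017 with GC content and length removed. Rpl5 lay at 102, 136 and 171 against 116, 129.8 and 182 and did not pass (log2 fold change 0.020, SE 0.131, adjusted p = 0.907). The ranges of both genes overlapped between CS and SD. Rps27a, made as a fusion with ubiquitin, lay at 51.3, 75.1 and 89.1 against 81.8, 109.9 and 184 (log2 fold change 0.66, SE 0.181, adjusted p = 0.0101), and SD replicate 2 stood far above the others. Rpsa, a small-subunit protein also known as a laminin receptor, lay at 110.1, 196 and 268 against 188, 299.9 and 338 (log2 fold change 0.52, SE 0.181, adjusted p = 0.0278). Rpsa lost its call with GC content and length removed and without SD replicate 2, 4 or 8. Rps6, the substrate of the S6 kinases downstream of mTORC1, lay at 58.5, 87.2 and 125 against 52.5, 83.0 and 139.7 (log2 fold change -0.0086, SE 0.209, adjusted p = 0.974). Its CS and SD libraries covered nearly the same range, and the 95% interval of the difference ran from -0.45 to 0.44.

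The members with the lowest values were abundant. Rpl21 lay at 199.9, 334 and 613 rescaled CPM in CS and 171, 229 and 464 in SD (log2 fold change -0.52, SE 0.274, adjusted p = 0.121). Rpl17 lay at 139, 179 and 279 against 100.5, 142 and 252 (log2 fold change -0.36, SE 0.22, adjusted p = 0.181). Rpl4, which lines the exit tunnel of the large subunit, lay at 321, 402 and 598 against 274, 302 and 417 (log2 fold change -0.35, SE 0.145, adjusted p = 0.0525). In all 3 the CS replicates 1 and 2, lowest for the P stalk genes, were the highest of their group. Rps24 lay at 217, 244 and 338 against 200.003, 237 and 345 (-0.059, adjusted p = 0.719), and Rpl19 at 133, 184 and 274 against 111, 186 and 286 (-0.057, adjusted p = 0.828). Neither showed a difference beyond the spread between libraries.

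The small subunit had 22 of 32 members higher (median 0.65) and the large subunit 26 of 46 (0.48). Of the 14 members whose human genes are mutated in Diamond-Blackfan anaemia, an inherited failure of red cell production, 8 were higher (median 0.55). On chromosome X, 3 of 4 were higher (median 0.56). Members that host a small nucleolar RNA had 17 of 29 higher (0.47), and those without one had 31 of 49 (0.63). With a pyrimidine run at the 5' end 24 of 42 were higher (median 0.48), and without one 13 of 16 (0.67): Rplp2, Rpl37a, Rpl11 and Rps12 above rose, whereas Rpl5, Rps6, Rps24 and Rpl4 did not pass.

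Copies of a pair were not always called together. Rpl22l1 lay at 6.14, 18.3 and 23.3 rescaled CPM in CS and 19.1, 22 and 61.4 in SD (0.84, adjusted p = 0.0494), and Rpl22 at 50.1, 56.0 and 69.3 against 53, 62.3 and 89.4 (0.15, adjusted p = 0.3). Rpl7l1 lay at 18.4, 26.4 and 31.1 against 29.6, 31.4 and 39.0 (0.31, adjusted p = 0.0391), and Rpl7 at 124, 142 and 164 against 139, 152 and 186 (0.12, adjusted p = 0.292). In both pairs the copy was called and the gene it is named after was not, and the difference within a pair was not tested. Rps27 lay at 26.5, 99.7 and 133 against 84.8, 118 and 197 (0.65, adjusted p = 0.093), and Rps27l at 7.04, 8.37 and 11.8 against 6.22, 8.60 and 12.4 (0.042, adjusted p = 0.817); neither passed. Of the members whose copy is near 0 or no member, Rpl3 lay at 110.1, 207 and 247 against 226, 287 and 344 (0.60, adjusted p = 0.00858), and Rpl10 at 60.4, 105 and 137 against 107, 146 and 197 (0.48, adjusted p = 0.0411). Rpl39 lay at 15.1, 37.4 and 48.7 against 32.7, 54.4 and 139 (1.001, adjusted p = 0.019). These 3 rose, as did Rps4x, at 46.1, 94.5 and 122 against 106, 118 and 189 (0.63, adjusted p = 0.0237). Rpl36a, at 41.5, 48.0 and 54.6 against 42.2, 56.1 and 96.2, did not pass (0.33, adjusted p = 0.133).

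**Figure D3:**
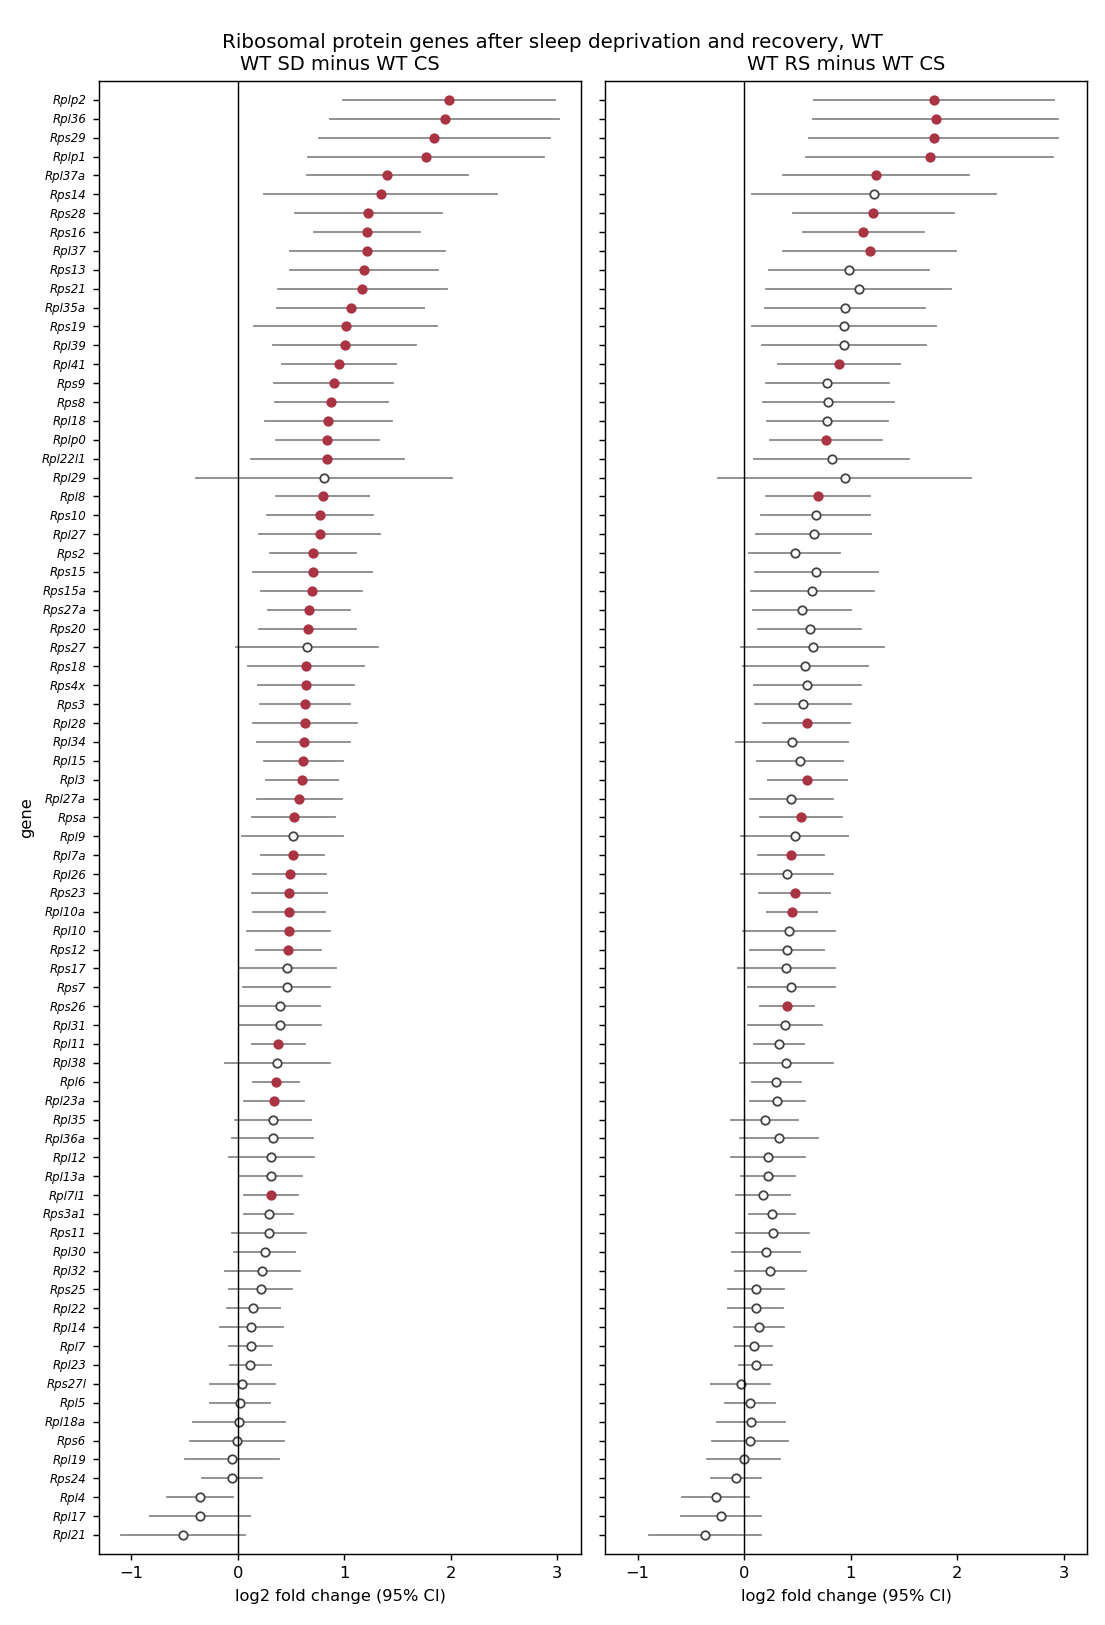
Log2 fold change (x axis, with 95% interval) of the ribosomal protein genes reported by name (y axis) for SD minus CS and RS minus CS in WT, with filled points for DEGs. The order is that of SD minus CS, from Rplp2 (1.98) to Rpl21 (-0.52); both panels use the same 6 CS libraries.

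Genes around the ribosome were counted from fixed lists in the same comparison. Of the 4 tested ribosome genes with other names 3 were higher (median 0.88): Fau (1.25, adjusted p = 0.00328), which encodes a small-subunit protein fused to a ubiquitin-like one, Rpl36al (0.79, adjusted p = 0.0246), and Gnb2l1 (0.59, adjusted p = 0.0133). Of 17 other genes with TOP mRNAs 6 were higher and 1 lower (median 0.093). These included Eef2 (0.64, adjusted p = 0.01), the factor that moves the ribosome along the mRNA, Eef1b2 (0.57, adjusted p = 0.00624) and Vim (1.02, adjusted p = 0.000207) on the higher side, whereas Eef1a1 (0.040, adjusted p = 0.809) did not pass. Of 34 genes of ribosome assembly 8 were higher and 2 lower (median 0.072), with Fbl, which methylates ribosomal RNA, at 0.58 (adjusted p = 0.0231) and Ncl, the nucleolar protein nucleolin, at -0.33 (adjusted p = 0.238). Of 16 genes of the mTORC1 and S6 kinase axis 5 were higher and 1 lower (median 0.033). The 5 were Ddit4 (1.65, adjusted p = 0.000661), Akt1s1 (1.10, adjusted p = 0.00723), Sesn2 (0.62, adjusted p = 0.0334), Eif4ebp2 (0.58, adjusted p = 0.00472) and Mlst8 (0.39, adjusted p = 0.02), a share of the list near the 24.6% of all genes, and the S6 kinase gene Rps6kb1 fell (-0.63, adjusted p = 0.00367). Ddit4, Akt1s1 and Sesn2 encode inhibitors of mTORC1, as do Tsc1 (0.029, adjusted p = 0.758), Tsc2 (0.21, adjusted p = 0.0967), Deptor (-0.079, adjusted p = 0.513) and Sesn1 (-0.12, adjusted p = 0.156), which did not pass. Of the p53 list of 3, Cdkn1a (0.95, adjusted p = 0.00301) and Trp53 (0.38, adjusted p = 0.0284) were higher and Mdm2 (-0.012, adjusted p = 0.922) was not.

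Genes of the mitochondrial machinery were also more often higher than lower. Of 71 mitochondrial ribosomal proteins 27 were higher and 1 lower (median 0.23), and of 77 nuclear genes of the respiratory chain 47 were higher and 3 lower (median 0.51). By transcript length, members under 500 nt had a median of 0.95 and other genes of that length 0.75, with 66.7% of the 39 others called higher. At 500 to 600 nt the medians were 0.70 and 0.56, at 600 to 800 nt 0.64 and 0.31, at 800 to 1200 nt 0.48 and 0.26, and at 1200 to 2000 nt 0.33 and 0.21. In each of these bins the members stood above the other genes, and both medians were lower in each longer bin. Across the members the log2 fold change had a Spearman correlation of -0.41 with transcript length and 0.36 with GC content, and across other genes -0.30 and 0.73. The genes of a comparison share its libraries and are no replicates.

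**Figure D4:**
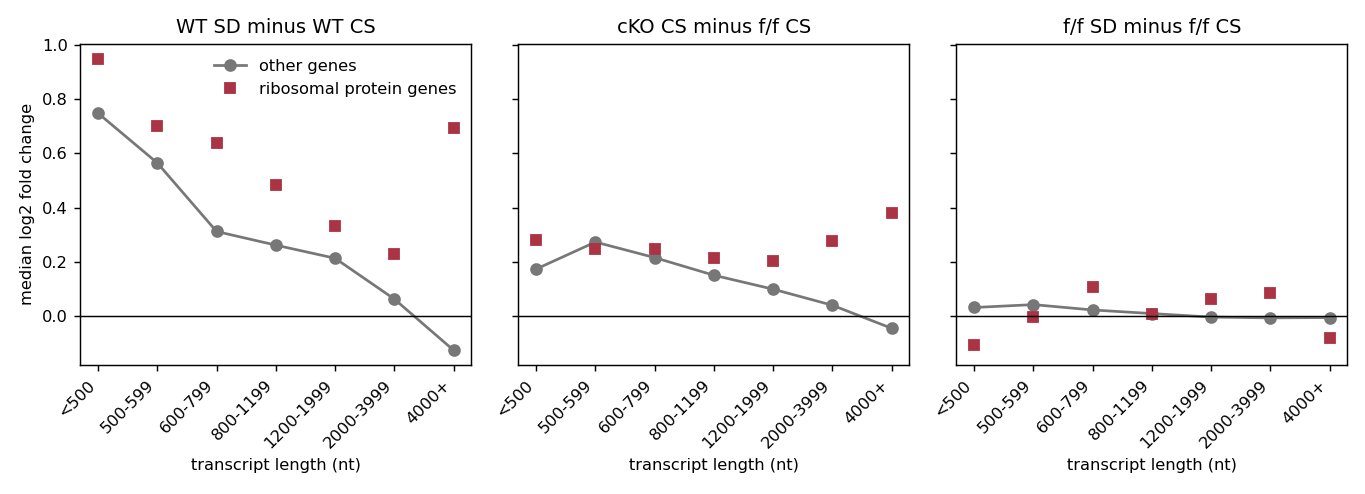
Median log2 fold change (y axis) of ribosomal protein genes and of other genes by transcript length (x axis, nt) in 3 comparisons. In WT SD minus CS both fall with length, from 0.95 and 0.75 under 500 nt to 0.33 and 0.21 at 1200 to 2000 nt, whereas in Mef2c f/f SD minus CS both lie between -0.11 and 0.11 up to 2000 nt. The bin of 4000 nt and over holds 1 ribosomal protein gene.

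Several measures moved with the WT result. The 258 other expressed genes with transcripts of at most 834 nt had a median deviation from their own mean of -0.60 to -0.069 on the log2 scale in the CS libraries and -0.26 to 0.41 in SD. The Spearman correlation of a gene's deviation with its GC content ran from -0.75 to -0.083 in CS and from 0.027 to 0.78 in SD. When GC content and transcript length were removed per library, 22 of the 78 members were called higher, among them the P stalk genes Rplp0, Rplp1 and Rplp2. The median member then stood at 0.18 and the median gene at -0.0029. The share of all genes called after this removal is not given here, so the 22 cannot be set against it. All 5 blood genes were higher (median 1.59), with sums of 28.2 to 118 rescaled CPM in CS and 97.8 to 285 in SD, as were 4 of 6 genes of meningeal fibroblasts (median 1.59), with sums of 10.7 to 47.9 and 57.4 to 92.8. No gene of either list was listed at 0. Of the lists for neurons, astrocytes, oligodendrocytes, microglia, endothelial cells and pericytes, each had at most 3 genes higher and at most 1 lower. The part of GC content, length, blood or meninges in the result was not tested. Leaving out 1 library at a time left between 36 members called higher (without SD replicate 2) and 55 (without SD replicate 3). Members called lower numbered 1 without CS replicate 4 or 6 and 2 without CS replicate 5 or SD replicate 1.

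RS compared to CS asks whether the change is still present after recovery sleep. After RS, 19 of the 78 members were higher and none lower, against 9.28% of 12752 genes higher and 8.22% lower. The median member stood at 0.47 and the median gene at 0.016. RS mice had been deprived for less time than SD mice, and the same CS libraries serve both comparisons, so the values stand side by side only. The number of calls depended on single libraries: it was 0 without CS replicate 2 or 3 or without RS replicate 3, 4, 5, 6 or 12, 1 without CS replicate 1, and 28 to 36 without CS replicate 5 or 6 or RS replicate 1 or 2. With GC content and length removed it was 1.

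Rpl36 lay at 26.9, 64.7 and 155 rescaled CPM in RS (log2 fold change 1.80, SE 0.54, adjusted p = 0.0411). Rplp2 lay at 32.5, 66.0 and 234 (log2 fold change 1.78, SE 0.527, adjusted p = 0.0405), Rps29 at 80.02, 135 and 519 (log2 fold change 1.78, SE 0.547, adjusted p = 0.0426) and Rplp1 at 129.5, 261 and 542 (log2 fold change 1.74, SE 0.542, adjusted p = 0.0438). Rpl37a lay at 65.9, 122 and 271 (log2 fold change 1.24, SE 0.409, adjusted p = 0.0485). In all 5 genes RS replicates 5 and 6 were the 2 highest of their group, the lower RS libraries overlapped CS, and no member had every RS library above every CS library, which 1.7% of all genes did. The lowest values were those of Rpl21, at 212, 244 and 385 in RS (-0.37, adjusted p = 0.24), Rpl4 at 289.6, 318 and 419 (-0.27, adjusted p = 0.154), Rpl17 at 125, 169 and 209 (-0.22, adjusted p = 0.32), Rps24 at 209, 238 and 295 (-0.077, adjusted p = 0.585) and Rps27l, at 7.04, 8.37 and 11.8 in CS and 6.496, 8.36 and 10.51 in RS (-0.034, adjusted p = 0.842). None of these passed. All 3 P stalk genes were called, none of the 5S pair or of the 4 genes on chromosome X, 7 of 32 of the small subunit and 12 of 46 of the large one. Of the other TOP genes 4 of 17 were higher, of the assembly genes 1 of 34, and on the mTORC1 axis 2 of 16 were higher and 1 lower. The respiratory chain had 17 of 76 higher and none lower, the mitochondrial ribosomal proteins 7 of 71 higher and 1 lower, and the blood genes 3 of 5 higher, with sums of 85.2 to 139 rescaled CPM in RS; the part of blood was not tested.

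RS compared to SD gave no DEG among the members, and 0.0232% of the 12921 genes tested. No member reached an unadjusted p of 0.05, where 5.29% of all genes did, and no member was called by edgeR or DESeq2. Values ran from -0.23 for Rps2, at 106, 157 and 241 rescaled CPM in SD and 94.9, 126 and 209 in RS, to 0.15 for Rpl21, and 63 of 78 were negative with a median of -0.053. The next lowest were Rps13 (-0.20; 39.4, 69.9 and 125 in SD and 30.6, 55.9 and 103 in RS), Rplp2 (-0.20), Rpl34 (-0.17; 51.4, 84.0 and 133 against 46.0, 65.3 and 123) and Rpl37a (-0.17), and the next highest Rpl17 (0.13), Rpl29 (0.13; 36.6, 80.1 and 84.0 against 55.6, 78.4 and 84.0), Rpl4 (0.085) and Rps6 (0.066). The ranges overlapped in each. The median half-width of the 95% interval was 0.40. This interval is unadjusted, whereas a call needs a p adjusted over all 12921 genes, so it does not give the change that would be called.

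SD compared to CS in Mef2c f/f mice asks the first question in the control line of the knockout. No member was called, and 0.0403% of 12410 genes were. The median member stood at 0.028, values ran from -0.42 to 0.35, and the smallest adjusted p was 0.172. Unadjusted p-values reached 0.05 in 5 members, as they did in 17.0% of all genes, and neither edgeR nor DESeq2 called a member. The median half-width of the 95% interval was 0.21, less than the median member change of 0.55 in WT. This interval is unadjusted, whereas a call needs a p adjusted over all 12410 genes, so it does not give the change that would be called. Without CS replicate 1, 3 members were called higher. In 8 members each SD library lay above each CS library, against 8.53% of all genes.

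Rps27a lay at 129, 133, 107 and 99.9 rescaled CPM in the 4 CS libraries and 158, 134 and 154 in the 3 SD libraries (log2 fold change 0.35, SE 0.113, adjusted p = 0.193). Rps21 lay at 162, 156, 138 and 159 against 209, 163 and 199.6 (log2 fold change 0.30, SE 0.101, adjusted p = 0.195). Rpl27a lay at 109.9, 103, 94.3 and 93.3 against 124, 116 and 121 (log2 fold change 0.27, SE 0.0795, adjusted p = 0.172). These 3 had the highest values and did not overlap between the groups, yet none passed. Rpl22l1 (79.0, 56.7, 47.0 and 38.8 in CS, 67.8, 55.5 and 70.7 in SD, 0.26) and Rpl35 (85.0, 65.1, 60.8 and 51.9 against 78.6, 76.5 and 77.7, 0.26) followed and overlapped. At the other end stood Rpl37, at 151, 209, 173 and 328 in CS and 157, 167 and 137 in SD (log2 fold change -0.42, SE 0.221, adjusted p = 0.352). Rpl31 (142, 173, 159 and 257 against 131, 167 and 119, -0.37), Rpl10a (33.3, 49.5, 41.9 and 61.9 against 34.1, 42.0 and 34.1, -0.31) and Rpl38 (213, 282, 228 and 323 against 209, 236 and 189, -0.29) were also among the lowest. In all 4 CS replicate 4 was the highest library.

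The P stalk genes, which led in WT, did not pass in this line. Rplp2 lay at 87.9, 123, 99.5 and 130.4 rescaled CPM in CS and 118, 112 and 103 in SD, Rplp1 at 217, 272, 237 and 442 against 258, 276 and 238, and Rplp0 at 80.7, 103, 92.8 and 119 against 108, 112 and 101. SD libraries lay inside the CS range in each, with log2 fold changes of 0.023, -0.12 and 0.12. No list around the ribosome had a call, and the blood genes had a median of -1.01.

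SD compared to CS in Mef2c-cKO mice gave no call among the members either, and 0.0234% of 12810 genes. The median was -0.072, 57 of 78 were negative, 9 members had an unadjusted p of at most 0.05 (3.05% of all genes), and the smallest adjusted p was 0.998 by limma. EdgeR called none of them and DESeq2 1. In 13 members every SD library lay below every CS library, against 4.56% of all genes, and in 1 member, Rps14, every SD library lay above, against 4.49%.

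Rpl29 had the lowest value, at 78.5, 75.2 and 73.8 rescaled CPM in CS and 65.6, 40.3 and 37.6 in SD (log2 fold change -0.70, SE 0.199, adjusted p = 0.998). Rps12 lay at 125, 123 and 118 against 67.3, 101 and 93.4 (log2 fold change -0.50, SE 0.147, adjusted p = 0.998). Rplp1 lay at 452, 544 and 504 against 383, 375 and 432 (log2 fold change -0.33, SE 0.102, adjusted p = 0.998). All 3 were separated between the groups, as was Rps27a (148, 132 and 136 against 104, 123 and 114, -0.29), and Rpl39 (110.3, 95 and 133 against 84.6, 101 and 88.3, -0.29) was not. At the upper end Rps14 lay at 216, 236 and 225 against 303, 265 and 301 (log2 fold change 0.36, SE 0.0822, adjusted p = 0.998). Rps16 (49.9, 44.0 and 55.6 against 51.8, 65.6 and 61.2, 0.25), Rps28 (161, 171 and 155 against 168, 211 and 191, 0.22), Rpl22l1 (80.3, 64.9 and 63.4 against 83.2, 97.9 and 62.8, 0.21) and Rpl36 (72.6, 103 and 86.4 against 92.3, 93.9 and 99.5, 0.14) overlapped. Blood genes had a median of 1.31 in this comparison, with sums of 10.7 to 108 rescaled CPM in CS and 75.9 to 141 in SD.

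Mef2c-cKO compared to Mef2c f/f in CS asks whether these mRNAs differ with the Cre transgene and the loss of Mef2c in mice that slept. No group carried Cre alone, so the transgene and the loss of Mef2c cannot be told apart, in CS or in SD. Of the 78 members 17 were higher (21.8%) and none lower, against 3.17% of 12681 genes higher and 4.5% lower. The median member stood at 0.25 and the median gene at 0.032, and 67 members had a positive value. In 37 members every Mef2c-cKO library lay above every Mef2c f/f library, against 13.4% of all genes. Of those called, Rps21 and Rps12 of the small subunit and Rpl27 and Rpl34 of the large subunit had the largest values.

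Rps21, a short protein of the small subunit, lay at 162, 156, 138 and 159 rescaled CPM in the 4 Mef2c f/f libraries and 296, 267 and 233 in the 3 Mef2c-cKO libraries (log2 fold change 0.78, SE 0.104, adjusted p = 0.00573). Rps12 lay at 62.6, 77.6, 67.1 and 97.2 against 125, 123 and 118 (log2 fold change 0.69, SE 0.141, adjusted p = 0.0245). Rpl27 lay at 69.9, 72.3, 68.7 and 79.7 against 113, 107 and 106 (log2 fold change 0.58, SE 0.0822, adjusted p = 0.00696). Rpl34 lay at 91.8, 101, 83.6 and 79.6 against 135, 125 and 123 (log2 fold change 0.53, SE 0.0979, adjusted p = 0.0185). In each of the 4 the lowest Mef2c-cKO library lay above the highest Mef2c f/f library. Rplp1 had the largest value, at 217, 272, 237 and 442 against 452, 544 and 504 (log2 fold change 0.83, SE 0.22, adjusted p = 0.0524), and missed the threshold; Mef2c f/f replicate 4 was far above the other 3 of its group. The other P stalk genes, Rplp0 (0.46, adjusted p = 0.086) and Rplp2 (0.36, adjusted p = 0.155), did not pass.

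Of the other members with a fixed role, none passed. Rps6 lay at 68.3, 82.1, 74.9 and 108 rescaled CPM in Mef2c f/f and 97.6, 95.2 and 92.8 in Mef2c-cKO (0.21, adjusted p = 0.349), and Rpsa at 179, 230.3, 197 and 273 against 264, 288 and 261 (0.32, adjusted p = 0.173). Rpl5 lay at 144, 156, 139.9 and 157 against 179, 165 and 159 (0.17, adjusted p = 0.222), and Rpl11 at 87.0, 92.2, 79.97 and 92.7 against 97.7, 98.6 and 96.9 (0.15, adjusted p = 0.246). Rps27a lay at 129, 133, 107 and 99.9 against 148, 132 and 136 (0.25, adjusted p = 0.197).

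The lowest members did not pass. Rps14 lay at 249, 259, 226 and 421 in Mef2c f/f and 216, 236 and 225 in Mef2c-cKO (log2 fold change -0.31, SE 0.191, adjusted p = 0.311), and Rpl37 at 151, 209, 173 and 328 against 163, 194 and 169 (log2 fold change -0.23, SE 0.23, adjusted p = 0.538). For both, Mef2c f/f replicate 4 was the highest library. Rpl38 (213, 282, 228 and 323 against 229, 252 and 226, -0.13), Rpl26 (165, 207, 174 and 232 against 178, 200.01 and 177, -0.062) and Rpl39 (141, 132, 113 and 85.5 against 110.3, 95 and 133, -0.053) overlapped.

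Of the small subunit 10 of 32 members were higher (median 0.27) and of the large subunit 7 of 46 (0.19). On chromosome X, Rps4x (131, 134, 126 and 151 rescaled CPM in Mef2c f/f and 189, 176 and 205 in Mef2c-cKO, adjusted p = 0.0212) and Rpl10 (111, 123, 115 and 126 against 157, 149.9 and 166, adjusted p = 0.0233) were called, and Rpl36a and Rpl39 were not. In the Diamond-Blackfan list 3 of 14 were higher. Of the pairs, Rpl22 (0.39, adjusted p = 0.0263) and Rpl7 (0.36, adjusted p = 0.0251) were called but not Rpl22l1 (0.37, adjusted p = 0.286) or Rpl7l1 (0.17, adjusted p = 0.222). With a pyrimidine run 7 of 42 were higher (median 0.24) and without one 7 of 16 (0.35). Among other TOP genes 3 of 17 were higher, among assembly genes 2 were higher and 2 lower of 34, and on the mTORC1 axis Eif4ebp1 (-0.73, adjusted p = 0.0406) and Tsc1 (-0.43, adjusted p = 0.0236) were lower and none higher of 16. In the respiratory chain 14 of 77 were higher and none lower.

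By transcript length the members had medians between 0.20 and 0.28 in each bin up to 2000 nt, and other genes 0.17 under 500 nt, 0.27 at 500 to 600 nt, 0.22 at 600 to 800 nt, 0.15 at 800 to 1200 nt and 0.099 at 1200 to 2000 nt. The 258 other short-transcript genes had median deviations of -0.052 to 0.070 in the Mef2c f/f CS libraries and 0.16 to 0.26 in the Mef2c-cKO CS libraries. With GC content and length removed 8 members were higher and 1 lower, with medians of 0.080 for the members and -0.031 for all genes. The share of all genes called in that fit is not given here. Markers of microglia had a median of 0.74 with no call among 7, and a sum of 524 rescaled CPM in 1 of the 3 Mef2c-cKO libraries against 148 to 177 in Mef2c f/f. Of 5 blood genes 2 were lower, with sums of 10.7 to 108 in Mef2c-cKO and 123 to 182 in Mef2c f/f, and of 6 genes of meningeal fibroblasts 2 were higher. Of 7 oligodendrocyte markers 2 were higher, as was 1 of 7 for inhibitory neurons and 1 of 7 for astrocytes. For excitatory neurons 1 of 7 was lower, and for endothelial cells 1 of 6. The part of these cells, of GC content and of length in the result was not tested. The count fell to 2 without Mef2c-cKO replicate 7, 4 without Mef2c-cKO replicate 5, 7 without Mef2c-cKO replicate 8, 5 without Mef2c f/f replicate 2 and 8 without Mef2c f/f replicate 3. Rps21 and Rpl27 stayed called in each of these and under each of the other settings tried.

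Mef2c-cKO compared to Mef2c f/f in SD gave 16 members higher and 2 lower, against 9.1% of 12774 genes higher and 5.99% lower. The median member stood at 0.18 and the median gene at 0.015. In 38 members every Mef2c-cKO library lay above every Mef2c f/f library, against 21.6% of all genes, and in 3 members every library lay below, against 18.7%. P stalk genes Rplp1 and Rplp2 were among those higher, and an X-linked protein of the exit tunnel, Rpl39, and the ubiquitin fusion Rps27a were lower.

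Rps16 led, at 29.4, 31.3 and 32.7 rescaled CPM in the 3 Mef2c f/f libraries and 51.8, 65.6 and 61.2 in the 3 Mef2c-cKO libraries (log2 fold change 0.92, SE 0.0955, adjusted p = 0.00102). Rplp1 lay at 258, 276 and 238 against 383, 375 and 432 (log2 fold change 0.62, SE 0.0834, adjusted p = 0.00284). Rps28 lay at 123, 136 and 112 against 168, 211 and 191 (log2 fold change 0.62, SE 0.101, adjusted p = 0.00645). In these 3 the groups were well apart. Rpl10a lay at 34.1, 42.0 and 34.1 against 49.7, 52.9 and 55.4 (log2 fold change 0.52, SE 0.0949, adjusted p = 0.00974), and Rplp2 at 118, 112 and 103 against 127, 181 and 155 (log2 fold change 0.46, SE 0.12, adjusted p = 0.0341). These were separated as well, Rplp2 by less than the spread within Mef2c-cKO.

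Rpl39 lay at 133, 133 and 126 in Mef2c f/f and 84.6, 101 and 88.3 in Mef2c-cKO (log2 fold change -0.52, SE 0.0776, adjusted p = 0.00459). Rps27a lay at 158, 134 and 154 against 104, 123 and 114 (log2 fold change -0.38, SE 0.0879, adjusted p = 0.0222). Both fell without overlap. Rpl29 lay at 67.8, 61.4 and 61.4 against 65.6, 40.3 and 37.6 and did not pass (log2 fold change -0.45, SE 0.185, adjusted p = 0.126), and Mef2c-cKO replicate 5 lay within the Mef2c f/f range. Rpl9 (261, 225 and 252 against 184, 237 and 191) and Rpl17 (200.1, 185 and 189.7 against 159, 175 and 161) had values of -0.28 and -0.22 and did not pass either.

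**Figure D5:**
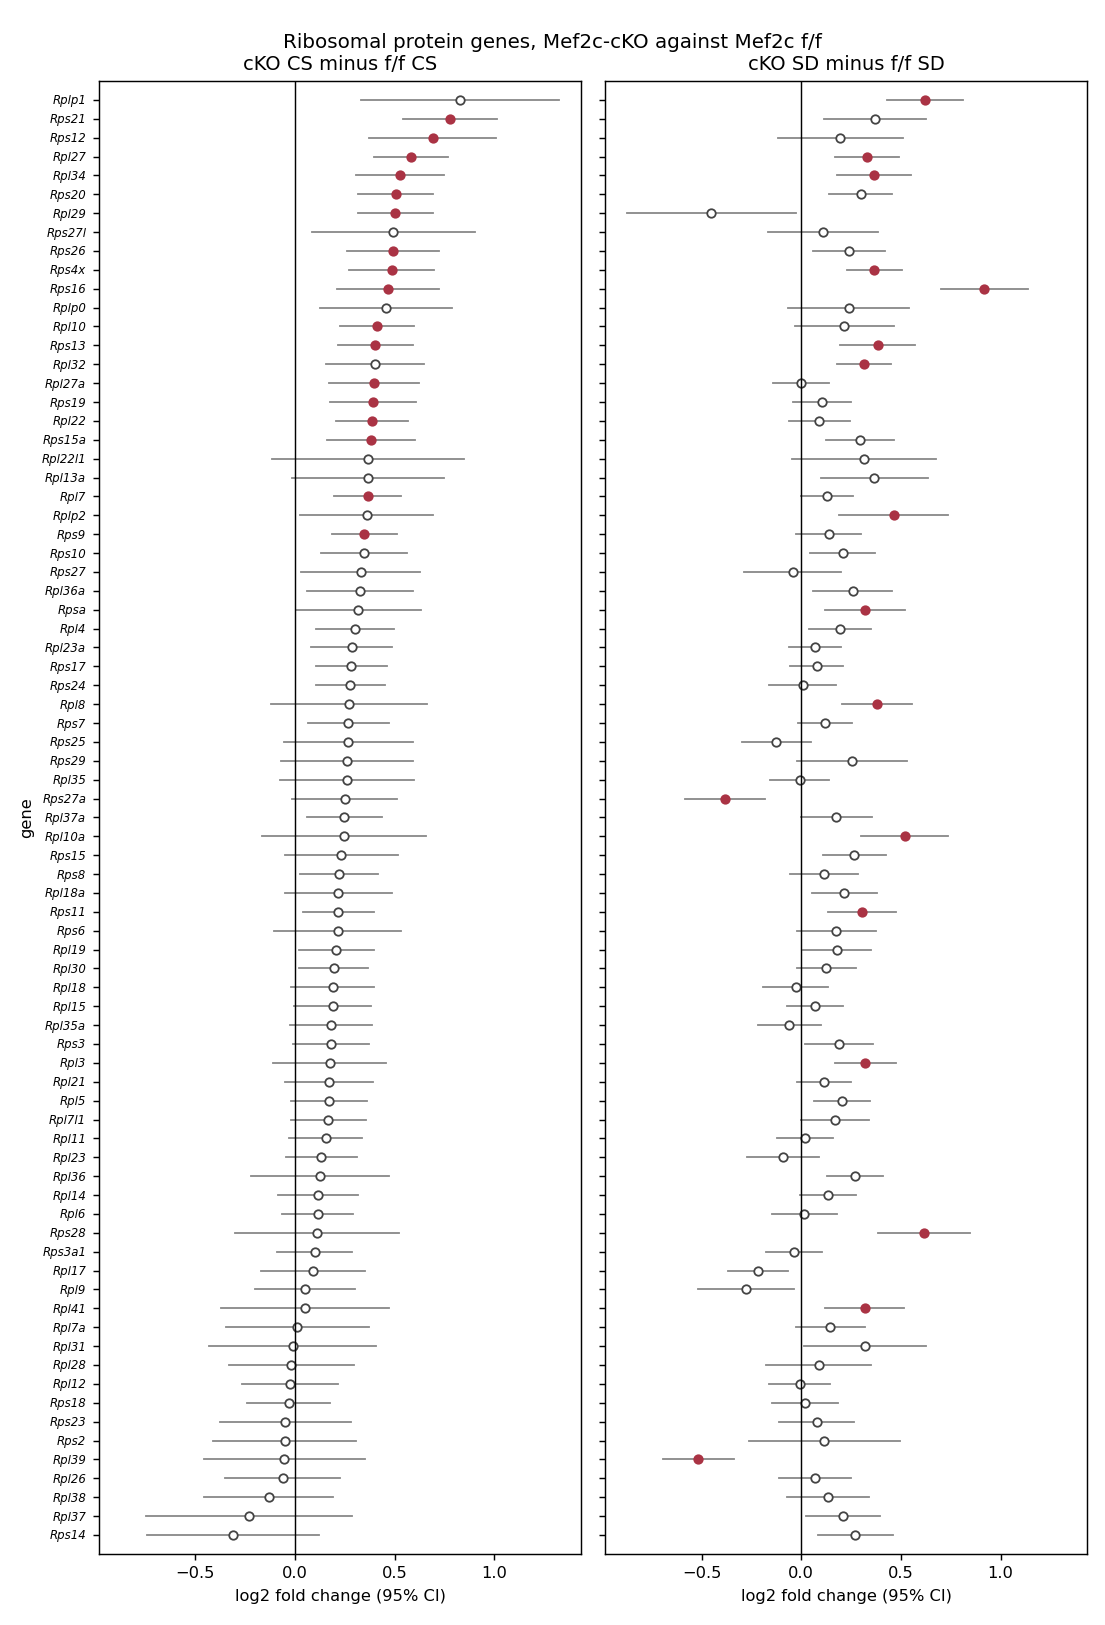
Log2 fold change (x axis, with 95% interval) of the ribosomal protein genes reported by name (y axis) for Mef2c-cKO minus Mef2c f/f in CS and in SD, with filled points for DEGs. The order is that of CS; Rps21 (0.78) leads the DEGs in CS and Rps16 (0.92) in SD, where Rpl39 (-0.52) and Rps27a (-0.38) are lower.

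Called higher were 7 of 32 small-subunit members and 9 of 46 large-subunit members, and 1 of each was lower. With a pyrimidine run 3 of 42 were higher (median 0.14) and without one 7 of 16 (0.23). Fau (0.32, adjusted p = 0.0206) and the assembly gene Rrp9 (0.88, adjusted p = 0.000548) were higher, and Rps6kb1 (-0.37, adjusted p = 0.00808) was lower. Markers of microglia were higher in 5 of 7 (median 0.40) and those of excitatory neurons lower in 3 of 7 (median -0.31). The sums for microglia were 164 to 170.4 rescaled CPM in Mef2c f/f and 209 to 232 in Mef2c-cKO. Markers of inhibitory neurons went both ways, with 3 higher and 2 lower of 7 (median 0.21). Astrocytes had 2 higher of 7, oligodendrocytes 1 lower of 7 and endothelial cells 1 higher of 6. Pericytes, meningeal fibroblasts and blood had no call. By transcript length, members under 500 nt had a median of 0.26 and other genes 0.23, with 25.6% of those others called higher. At 500 to 600 nt the medians were 0.20 and 0.21, and at 600 to 800 nt 0.16 and 0.17. They were 0.13 and 0.11 at 800 to 1200 nt, and 0.15 and 0.074 at 1200 to 2000 nt. With GC content and length removed 5 members were higher and 4 lower, with medians of 0.022 for the members and -0.047 for all genes. The share of all genes called in that fit is not given here. The part of cell composition, GC content and length in the result was not tested. The count of calls fell from 18 to 6 without Mef2c f/f replicate 1 and to 7 without Mef2c f/f replicate 3. Rps16 and Rps28 stayed called in each of these and under each of the other settings tried. Rplp2 lost its call in 8 of 18 settings, Rps27a in 5, Rpl10a in 2, and Rplp1 and Rpl39 in 1 each. A fit over all groups of the Mef2c lines called 7 members higher and 0 lower, so neither Rpl39 nor Rps27a was called there.

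The difference between the SD effects of Mef2c-cKO and Mef2c f/f was tested as an interaction. No member was called at an adjusted p of 0.05, and 0.00778% of 12860 genes were. The median was -0.086, 16 members had an unadjusted p of at most 0.05 (7.81% of all genes), edgeR called none and DESeq2 2, 1 member was called without Mef2c-cKO SD replicate 5, and the smallest adjusted p was 0.325. The lowest was Rpl29 (log2 fold change -0.95, SE 0.214, adjusted p = 0.325), followed by Rps27a (-0.63), Rps12 (-0.50), Rpl39 (-0.46) and Rps21 (-0.41). The highest were Rps14 (0.58), Rps28 (0.51), Rps16 (0.45) and Rpl37 (0.44). The median half-width of the 95% interval was 0.30.

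The SD effect in Mef2c f/f was set against that in WT in the same way, using within-line differences only. The effect was lower in Mef2c f/f for 6 of 78 members and higher for none, against 5.78% of 13106 genes lower and 9.35% higher, so the share of members lower was near that of all genes. The median was -0.57 for the members and -0.052 for all genes, and 71 of 78 were negative. The 6 were Rpl37 (-1.64, adjusted p = 0.0453), Rps28 (-1.51, adjusted p = 0.0462), Rps16 (-1.41, adjusted p = 0.0218), Rpl41 (-1.21, adjusted p = 0.0454), Rpl3 (-0.77, adjusted p = 0.0425) and Rpl7a (-0.71, adjusted p = 0.0456). Rps16, for example, lay at 6.07, 13.2 and 17.7 rescaled CPM in WT CS and 20.2, 32.8 and 40.7 in SD, but at 32.1, 36.5, 34.2 and 40.8 in Mef2c f/f CS and 29.4, 31.3 and 32.7 in SD. The largest differences were those of Rps29 (-2.0003, adjusted p = 0.0656), Rplp2 (-1.96, adjusted p = 0.0557), Rpl36 (-1.95, adjusted p = 0.068) and Rplp1 (-1.89, adjusted p = 0.0832), which did not pass. At the upper end Rpl17 (0.55, adjusted p = 0.206), Rpl21 (0.50, adjusted p = 0.338), Rpl4 (0.44, adjusted p = 0.126), Rps27l (0.18, adjusted p = 0.579) and Rps24 (0.092, adjusted p = 0.732) did not pass. The count was 0 without Mef2c f/f CS replicate 2 or 4 or SD replicate 1 or 3. It lay between 1 and 3 without WT CS replicate 1 or 3, WT SD replicate 1, 2, 4, 8 or 9, Mef2c f/f CS replicate 3 or Mef2c f/f SD replicate 2. It lay between 11 and 20 without WT CS replicate 4, 5 or 6, WT SD replicate 3 or Mef2c f/f CS replicate 1, and was 1 with GC content and length removed. All 5 blood genes were lower in this contrast as well (median -2.62), and their part was not tested. The line and the cohort of libraries cannot be told apart here.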

How the data were processed

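RNA from frontal cortex was sequenced as paired-end, stranded mRNA libraries. Per the methods of the study, reads were cleaned with Trimmomatic, placed on mm10 by STAR and counted per gene with HTSeq where their position was unique. The authors deposited the counts scaled to each library's total (CPM). The annotation release is not given in the sources used here. All 711645 deposited CPM values were whole numbers of reads, within 0.01 of a read, once divided by the value of 1 read.

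Groups followed the sample labels, and the members and lists were chosen with earlier results of these data known. Each library was rescaled by a median-of-ratios factor (rescaled CPM). Genes with at least 1 CPM in every replicate of a compared group were tested with limma 3.58.1 (R 4.3.3, trend) on log2(rescaled CPM + 0.5), a scale that understates changes of low genes, with Benjamini-Hochberg adjustment over all genes tested. A DEG needed an adjusted p up to 0.05 with a log2 fold change of 0.3 or more in size. For interactions the adjusted p alone decided. Alternatives were edgeR 4.0.16 and DESeq2 1.42.0 on the recovered reads, other scalings, filters and pseudocounts, array weights, removal of GC content and length, a replicate block and leaving out each library. Scripts were tested on simulated data. Named were members with a fixed role (P stalk, Rpl5, Rpl11, Rps6, Rpsa, Rps27a), copy pairs, and the 5 highest and 5 lowest values of each comparison; genes named beyond this rule, such as those of the pathway lists, were chosen after their values were seen. The values of 1 member and 1 other gene are not reported here, but they count in all totals. Lengths, exons and sequences came from GRCm38 annotation, in which 19471 of 21565 symbols were found. No replicate pair of 72 agreed within sampling noise.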

Additional observations from a re-analysis of the deposited data

Results flagged for a closer look

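Rps27a in WT SD replicate 2, at 184 rescaled CPM, stood apart from the next highest library of its group at 115: the gap took 0.670 of the group's range, above Dixon's critical value for 7 libraries. Of 36 groups tested for the members with a fixed role and for the summed level of the members, 1 met this rule, where chance gives about 1 in 20. For 6 of the 78 members the SD effect differed between Mef2c f/f and WT by limma's interaction test across all genes. The differences were -1.64 for Rpl37 (adjusted p = 0.0453), -1.51 for Rps28 (adjusted p = 0.0462), -1.41 for Rps16 (adjusted p = 0.0218), -1.21 for Rpl41 (adjusted p = 0.0454), -0.77 for Rpl3 (adjusted p = 0.0425) and -0.71 for Rpl7a (adjusted p = 0.0456). Of all 13106 genes tested 5.78% were called lower and 9.35% higher, so the share of members lower was near that of all genes. The count was 1 with GC content and length removed, and 0 without Mef2c f/f CS replicate 2 or 4 or SD replicate 1 or 3.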

How the results depend on the processing

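The members called (main values in parentheses) changed under these settings. The share of all genes called under each setting is not given here. SD minus CS in WT (48) gave 22 with GC content and length removed. In that comparison edgeR on the recovered reads called 45 higher and 1 lower, and DESeq2 47 and 1. A fit over all WT groups called 49 and 1, and array weights 53 and 1. RS minus CS in WT (19) gave 31 with CPM as deposited, 0 without a filter on low values, 10 by edgeR, 37 by DESeq2, 36 in a fit over all WT groups and 1 with GC content and length removed. With array weights, SD minus CS gave 2 higher and 7 lower in Mef2c f/f and 1 higher and 4 lower in Mef2c-cKO (0 in both). DESeq2 gave 1 higher in Mef2c-cKO. Mef2c-cKO minus Mef2c f/f gave 26 with CPM as deposited and 9 with GC content and length removed in CS (17), and 7 in a fit over all groups and 9 with GC content and length removed in SD (18). The interaction of SD with Mef2c-cKO (0) gave 2 lower by DESeq2, and 1 higher and 8 lower with weights. That of SD with line, Mef2c f/f against WT (6), gave 22 with CPM as deposited, 1 without a filter and 14 by DESeq2, all lower. It gave 2 higher and 45 lower with weights, and 1 lower with GC content and length removed. CPM as deposited moved the median of all genes to 0.30 in SD minus CS and 0.20 in RS minus CS of WT. The causes of these shifts were not tested, except that an unfiltered table tests more genes.

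Leaving out 1 library at a time gave 36 to 55 for SD minus CS and 0 to 36 for RS minus CS in WT, 0 to 3 for SD minus CS in Mef2c f/f, 2 to 17 and 6 to 20 for Mef2c-cKO minus Mef2c f/f in CS and SD, 0 to 1 for the Mef2c-cKO interaction and 0 to 20 for that of line; RS minus SD and SD minus CS in Mef2c-cKO stayed at 0.

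Replicate numbers are shared between groups, and the labels do not say whether they pair the libraries. Same-numbered deviations correlated at -0.30 to 0.65 in WT CS and SD (1 of 5 best with its own number) and 0.049 to 0.66 in WT CS and RS (2 of 6). They correlated at -0.73 to 0.35 in WT SD and RS (1 of 5) and 0.054 to 0.29 in Mef2c f/f (2 of 3). In the 2 pairs of Mef2c-cKO the values were 0.066 and 0.16 (2 of 2). With so few pairs these values cannot decide whether the numbers pair the libraries, and the main fits used no block. With a replicate block 0 members were called in SD minus CS of WT, 45 in RS minus CS and 0 in the line interaction, and with the block and GC content and length removed 3 (all lower), 20 and 0.

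Rpl11, a DEG in WT SD minus CS (0.38), was among the named members that changed sign. Rpl22l1, at 0.26 in SD minus CS of Mef2c f/f, was another. The members that changed sign are given by comparison, with the values that turned. In WT SD minus CS these were Rpl19 (0.22 with CPM as deposited, 0.14 by quantiles, 0.0029 with weights), Rps24 (0.22, 0.18, 0.084 with GC content and length removed, 0.068 with block and removal), Rpl5 (-0.013 with weights, -0.028 with block), Rpl11 (-0.017 with GC content and length removed, -0.098 with block and removal) and Rps6 (0.26, 0.078 and 0.0013). In WT RS minus CS they were Rps27l (0.14 as deposited) and Rps24 (0.11, 0.095, 0.019 with weights, 0.038 with GC content and length removed, 0.041 with block and removal). In WT RS minus SD they were Rpl4 (-0.000599 as deposited, -0.0022 by quantiles) and Rps6 (-0.019 as deposited). In the Mef2c lines they were Rpl22l1 (-0.042 in Mef2c f/f and -0.026 in Mef2c-cKO with block and removal), Rps28 (-0.015, likewise), Rpl36 (-0.10 with weights), Rpl39 (0.050 as deposited, 0.0065 by quantiles) and Rpl26 (0.041 and 0.021). Leaving out 1 library at a time also turned the sign of some: in WT SD minus CS Rpl19 ran from -0.17 to 0.060, Rps24 from -0.14 to 0.021, Rpl5 from -0.061 to 0.087 and Rps6 from -0.13 to 0.11. In WT RS minus CS Rps27l ran from -0.090 to 0.058 and Rps24 from -0.12 to 0.0035, and in WT RS minus SD Rpl29 from -0.012 to 0.20, Rps6 from -0.049 to 0.18 and Rplp2 from -0.47 to 0.027. In Mef2c-cKO minus Mef2c f/f of CS Rpl39 ran from -0.20 to 0.063 and Rpl26 from -0.14 to 0.027.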
